A study of Mus musculus with 3 samples.

Results

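Regions in which an open chromatin signal is broken into many pieces were described in mouse embryonic stem cells (mESCs). The series held a single list of FAIRE intervals. On chromosomes 1 to 19, intervals separated by at most 500 bp were joined, which left 158631 joined regions, and those holding 10 or more intervals were selected on that count alone. There were 1978 such multi-interval regions, 1.25% of the joined regions. Of these, 1745 lay outside 4 areas in which intervals were already known to be unusually dense, and the values below are for those 1745 unless all 1978 are named. The 4 areas were 144.5 to 148 Mb of chromosome 4, 30.58 to 31.06 Mb of chromosome 17, 3 to 8 Mb of chromosome 14 and 84.5 to 88 Mb of chromosome 1, all in build mm9.

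In FAIRE, formaldehyde-assisted isolation of regulatory elements, DNA that formaldehyde did not fix to protein is purified and sequenced, which favours DNA free of nucleosomes. In embryonic stem cells such DNA is found at active promoters and enhancers. A single open site is usually a short stretch, whereas neighbouring enhancers, broad CpG-rich promoters and clustered genes can place several open sites side by side. F-Seq, the program named for the list, turns reads into a smooth density and reports every stretch where it lies above a threshold. A region whose density moves up and down across that threshold is therefore listed as several intervals.

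The 3 samples were wild type mESCs of the strain background 129Sv-C57Bl/6. One was an input library of genomic DNA, for which the labels name no agent. The other two were FAIRE samples of feeder-free cells exposed for 16 h to 500 nM ICRF-193, a catalytic inhibitor of topoisomerase II, or to its control DMSO. Each FAIRE title places replicates 1 and 2 in 1 sample. The list assigned no interval to a sample, so the regions were not compared between ICRF-193 and DMSO, and no p-value is given. The read depth behind the list is unknown.

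The regions were fragmented by the rule that chose them, but most of them were not long. Their median length was 2183 bp, with quartiles of 1535 and 3222 bp, a shortest of 213 bp and a longest of 94486 bp. Regions under 1000 bp numbered 177 (10.1%), and those over 5000 bp numbered 130 (7.45%). A length above 10000 bp was found for 23. The regions held a median of 12 intervals (upper quartile 14, highest 55), and 491 of them (28.1%) held exactly 10. Intervals covered a median of 57.7% of a region (quartiles 48.2% and 67.6%, range 15.1% to 98.5%), and 517 regions were covered over less than 50% of their length. The number of regions follows the joining distance, with 473 outside the areas at 200 bp and 3477 at 1000 bp.

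Highest scores of the regions were mostly above the median of all joined regions and within a few times the lowest score of the list. The score of an interval is the authors' own value, and the sources used here do not give its scale. The highest score in a region had a median of 0.0285, which was 2.22 times the lowest score on the autosomes, 0.0129. The median over all joined regions outside the areas was 0.0157. Quartiles for the multi-interval regions were 0.0201 and 0.0398 and the extremes 0.0134 and 0.371. An interval in the top 10% of the list by score (0.0237 or more, called high-score here) was present in 1098 of the 1745 regions, or 62.9%, against 19.6% of all joined regions outside the areas. A region with many intervals has more chances to hold one, so that difference is a description only. The other 647 regions (37.1%) had no high-score interval at all. In 746 regions (42.8%) the highest score stayed under 2 times the lowest score on the autosomes. The median over all joined regions outside the areas, 0.0157, lay under that limit too, so a majority of those stayed under it.

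The areas added 233 regions, 11.8% of the 1978, but 26.9% of the bases that the multi-interval regions covered. With them the median length rose from 2183 to 2291.5 bp, the median covered share from 57.7% to 59.0% and the median highest score from 0.0285 to 0.0291. The number over 10000 bp rose from 23 to 67, and the number with 20 or more intervals from 121 to 175. In relative terms the medians thus changed less with the areas than these counts of long and many-interval regions did. All 1978 regions together held 26563 intervals, 7.70% of those on the autosomes, and 4.24 Mb of covered sequence, 10.7% of the autosomal total. Outside the areas these were 22568 intervals and 3.10 Mb.

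**Figure D1:**
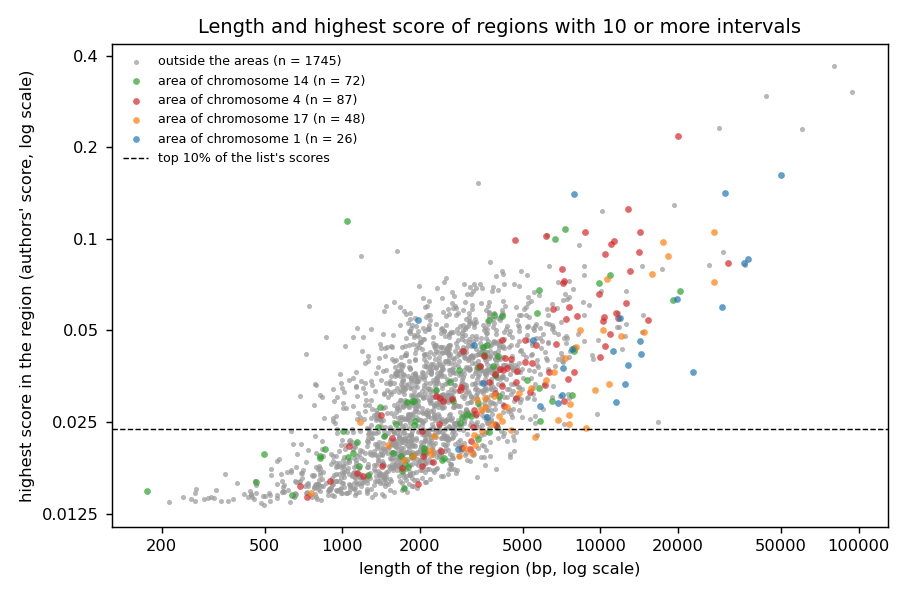
Length of each multi-interval region in bp (horizontal, log scale) against its highest score (vertical, log scale), with 1 point per region, grey outside the 4 areas and coloured inside them. The grey cloud centres on 2183 bp and 0.0285, many points of the areas lie to its right, and 37.1% of grey points lie under the dashed line of the list's top 10%.

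The 3 regions nearest the medians of length, covered share and highest score show what a typical one looks like. The first, chr17:84088682-84090797, was 2116 bp long and 58.6% covered. From left to right its 10 intervals were 75, 98, 15, 11, 15, 71, 8, 16, 635 and 296 bp wide. The interval of 635 bp had the highest score, 0.0270, and the next was the one of 296 bp with 0.0169. The other 8 scored between 0.0129 and 0.0148, close to the lowest score on the autosomes. One broad peak thus stood beside a lower one and 8 narrower intervals of low score.

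The second, chr3:68271828-68274029, held 15 intervals over 2202 bp. Its highest score, 0.0272, belonged to an interval of 404 bp close to the left end. It was followed by intervals of 241, 158, 115 and 157 bp with scores of 0.0176, 0.0167, 0.0140 and 0.0170, and 9 of the 15 were no wider than 24 bp. The third, chr2:154438618-154440890, held 10 intervals over 2273 bp, 4 of them 239 to 472 bp wide. Its highest score, 0.0260, was that of its last interval, 239 bp wide. In contrast to the first region, the 4 wide intervals scored 0.0171 to 0.0260 and were spread over its length.

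**Figure D2:**
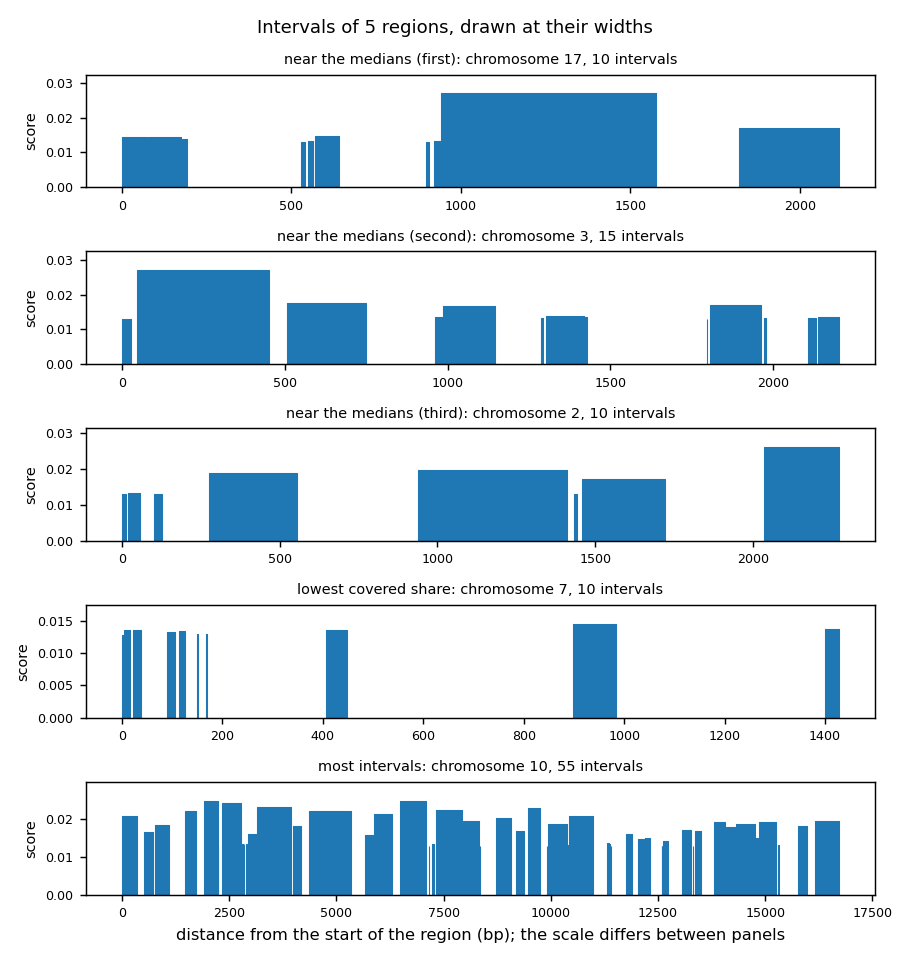
Intervals of 5 regions, each bar spanning an interval in bp from the start of its region (horizontal) and rising to its score (vertical), with narrow bars drawn at line width. The 3 upper regions combine intervals of over 200 bp with narrow ones near 0.013. The region of lowest covered share holds only narrow intervals, and the region of chromosome 10 holds 55 intervals that all score under 0.025.

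Inside the regions, narrow intervals were numerous and most bases lay in a minority of wide intervals. Of the 22568 intervals, 38.4% were no wider than 10 bp and 1539 were 1 bp wide. The median width was 20 bp, and 66.1% of intervals scored within 10% of the lowest score. Intervals of 200 bp or more made up 19.4% of intervals and 78.9% of covered bases. The widest interval of a region had a median of 494 bp and contained a median of 39.0% of the region's covered bases. In joined regions of 2 to 9 intervals the narrow share was much the same, at 37.6% of intervals no wider than 10 bp and a median width of 21 bp, but intervals of 200 bp or more held 64.8% of covered bases there.

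Gaps between neighbouring intervals were short in the main. Of the 20823 gaps, 55.1% were no longer than 20 bp, yet these held only 4.25% of the bases in gaps. Gaps over 100 bp made up 27.7%. In joined regions of 2 to 9 intervals, 64.6% of gaps were no longer than 20 bp and 20.7% were over 100 bp. Wider gaps were therefore the more frequent in multi-interval regions, where the rule also requires more gaps in a row to stay within 500 bp.

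Closing the gaps of 20 bp or less merged many of the intervals into fewer, wider pieces. It left 11100 blocks with a median width of 156 bp (quartiles 51 and 342 bp). A region held a median of 6 blocks, and 919 regions (52.7%) held 5 to 7. Only 178 regions (10.2%) still had 10 or more pieces, 168 had 3 or fewer, and 10 collapsed into a single block. Neighbouring block midpoints lay a median of 408 bp apart (quartiles 225.5 and 595 bp). In the other regions the count of 10 intervals rested in part on gaps of 20 bp or less.

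Regions with more blocks were longer and higher, in part by construction. Each block adds to the length and is another chance for a high score, so the order is a description only. Among the 168 regions of 1 to 3 blocks the median length was 957.5 bp, the median highest score 0.0189 and the share with a high-score interval 34.5%. Among the 596 regions of 6 to 7 blocks these values were 2363 bp, 0.0289 and 65.3%. Among the 45 regions of 13 or more blocks they were 6653 bp, 0.0442 and 93.3%. Covered share followed no such order. It was 64.4% in the first class, 56.1% in the second and 64.9% in the last.

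**Figure D3:**
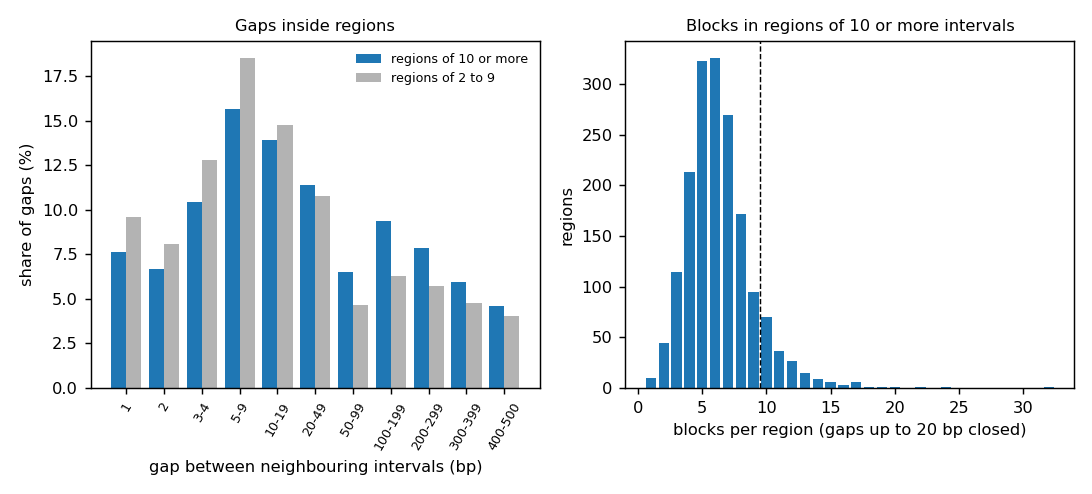
Left, share of gaps (vertical, percent) by gap length in bp (horizontal) in multi-interval regions (blue) and in joined regions of 2 to 9 intervals (grey). Right, number of multi-interval regions (vertical) by blocks left after closing gaps of up to 20 bp (horizontal), where 178 regions lie to the right of the dashed line, with 10 or more blocks.

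By position along the region, the highest interval was spread nearly evenly, whereas by order it was more often an end interval than the share of end intervals. Dividing each region into 5 equal parts, it lay in the first part in 19.2% of regions, in the central part in 21.9% and in the last part in 17.9%. The parts between held it in 20.1% and 20.9% of regions. End intervals were wider than inner ones, with median widths of 62 and 17.5 bp. The first or last interval had the highest score in 430 regions (24.6%), while first and last intervals made up 15.5% of all intervals. The former is a share of regions and the latter of intervals pooled over regions, so the size of the difference is a description only.

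Regions with 2 or more high-score intervals were a minority of the multi-interval regions, but a sizeable part of the 1098 that held any. A single high-score interval was found in 652 regions, 2 in 290 and 3 or more in 156, with at most 14. High-score intervals in the regions had a median width of 579.5 bp. In the 446 regions (25.6%) with at least 2 of them, neighbouring high-score midpoints lay a median of 1281.5 bp apart, and never closer than 395 bp. For comparison, 19.6% of all joined regions outside the areas held any high-score interval. The share of those with at least 2 was not computed, so the 25.6% is a description only.

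Regions just inside and just outside the threshold were alike. The 491 regions of 10 intervals had a median length of 1677 bp, a median covered share of 56.6% and a median highest score of 0.0251. The 787 regions of 9 intervals had 1535 bp, 57.9% and 0.0249. The count of 10 thus divides a continuous series. The 11852 regions of 5 to 9 intervals had a median length of 838 bp and a median highest score of 0.0191, and the 80626 regions of a single interval 129 bp and 0.0156.

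At a given length, multi-interval regions reached lower scores than joined regions with fewer intervals. From 2000 to under 3000 bp, 482 multi-interval regions had a median highest score of 0.0300 (quartiles 0.0231 and 0.0397) against 0.0356 (0.0277 and 0.0450) for 960 others. From 500 to under 1000 bp the medians were 0.0163 for 148 and 0.0222 for 17583 others. At 5000 bp or more they were 0.0486 for 130 and 0.105 for 26. The other regions were higher by 1.18 to 2.15 times in all 6 length classes, and their widest interval was wider in each, for example 671 against 531 bp from 2000 to under 3000 bp. Quartile ranges overlapped in 5 classes and did not at 5000 bp or more. Number, width and score of intervals come from one smoothed density, so these values are a description and not a test.

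**Figure D4:**
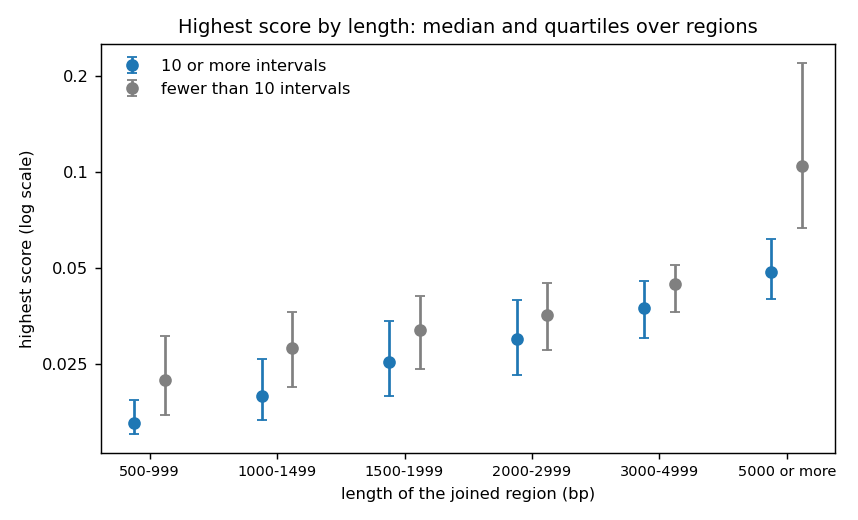
Highest score (vertical, log scale) by length class of the joined region in bp (horizontal). Points are medians and bars quartiles over regions outside the 4 areas, and multi-interval regions (blue) lie under regions of fewer intervals (grey) in all 6 classes.

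Multi-interval regions made up a larger share of high-scoring joined regions than of all, but a minority at each rank examined. They were 1.12% of the joined regions outside the areas. Of the 100 joined regions with the highest scores 3 were multi-interval regions, of the first 1000 there were 100, and of the first 10000 there were 632 (6.32%). When joined regions were ranked by highest score and split into 10 equal classes, the share with 10 or more intervals was 0.384% in class 5, 1.97% in class 9 and 5.12% in class 10. Only class 1, the lowest, had none.

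Multi-interval regions stood in surroundings that were themselves rich in intervals. Intervals covered a median of 9.16% of the 10 kb on either side of a multi-interval region (quartiles 4.38% and 17.2%). The same flanks were covered over 4.95% for regions of 5 to 9 intervals, 2.91% for regions of 2 to 4 and 2.03% for single intervals. No interval was listed in the flanks of 1.72% of multi-interval regions, against 18.6% of single intervals.

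Distances between neighbouring multi-interval regions varied widely. Neighbouring multi-interval regions on a chromosome were separated by a median of 229.5 kb (quartiles 28.4 and 1316 kb). Another multi-interval region lay within 50 kb of 834 of them (47.8%). No share of this kind is given for other joined regions, so the values of this paragraph are a description only. Chaining neighbours within 50 kb, a distance chosen with the data in view, gave 911 lone regions, 186 pairs, 49 triplets and 59 clusters of 4 or more. Those 59 clusters held 315 regions, 18.1% of the total, and 5 of them held at least 10 regions each. Chains this long were therefore few.

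The largest cluster, chr10:21873269-22148570, held 15 regions with 290 intervals over 275 kb. Its members were 1711 to 16724 bp long and 28.5% to 84.3% covered, and their highest scores ran from 0.0157 to 0.124. In 6 of the 15 no interval was high-score. The cluster also contained the region with the most intervals outside the areas, chr10:22015457-22032180. It held 55 intervals, or 32 blocks, over 16724 bp and was 68.1% covered. Its highest score was 0.0249, below the 0.0285 median of the highest scores of multi-interval regions. Only 3 of its 55 intervals were high-score, at 0.0249, 0.0249 and 0.0244.

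The clusters next in size differed in height and filling. The 11 regions at chr1:138430884-138628875 had a median highest score of 0.0249, and intervals in regions covered 12.9% of the span. On chromosome 5, 10 regions at chr5:14902808-15045421 had a median highest score of 0.0506 and filled 35.3% of the span. On chromosome 17, 10 regions at chr17:15098584-15192191 had 0.0556 and filled 56.3%, and all of these held a high-score interval. Another 10 regions of that chromosome, at chr17:6370100-6520820, had 0.0222 and filled 15.5%, and 6 of them held none. In the cluster chr13:12899036-13032132, 7 of 8 regions held none.

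Some clusters adjoined the areas or other filled stretches. Outside the areas, 26 regions lay within 500 kb of an area's edge, 13 of them beside the area of chromosome 14 and 11 beside that of chromosome 1. They included the 7 regions at chr14:8031120-8157838 and the 6 at chr1:88333605-88409251, so the values outside the areas are not free of their surroundings. A cluster of 6 regions at chr8:72038389-72128137 had a median length of 6040 bp and filled 39.1% of its span.

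The next regions by number of intervals lay on chromosomes 3, 5 and 6. The region chr3:25428824-25438480 held 41 intervals over 9657 bp with a highest score of 0.0266. At chr5:14976943-14991410, 36 intervals lay over 14468 bp with a highest score of 0.0816. The region chr5:14910622-14917184 held 35 intervals over only 6563 bp, with a highest score of 0.0328. At chr6:47600691-47637040, also with 35 intervals, a length of 36350 bp was 94.4% covered. Regions with nearly equal numbers of intervals thus differed several-fold in length.

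The 4 longest regions and the 5 highest lay near the end of a chromosome's listed part or a long empty stretch. Regions less than 500 kb from either end of the listed part of a chromosome, or from an empty stretch of 1 Mb or more, numbered 31 (1.78%, against 1.08% of all joined regions). The set of 31 included the 4 longest. These were chr8:19914705-20009190 (94486 bp, highest score 0.304), chr11:3019744-3100185 (80442 bp, 0.371), chr8:19679540-19739769 (60230 bp, 0.229) and chr8:19750049-19793734 (43686 bp, 0.295). With chr8:19853138-19881928 (28791 bp, 0.232) they also held the 5 highest scores. All 5 were at least 96.6% covered, and they had only 10 to 33 intervals. Of the 9 regions with a highest score over 0.1, these 5 lay near an end or an empty stretch. Whether reads of repeated sequence gave their scores was not tested.

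At the other extreme stood regions whose widest interval was 27 to 129 bp. The lowest covered share, 15.1%, was found at chr7:104885623-104887050, where 10 intervals of 1 to 86 bp lay over 1428 bp with a highest score of 0.0145. The next were chr6:65753301-65753929 (15.4%), chr14:56333511-56334310 (15.8%), chr13:113544785-113546367 (17.5%) and chr11:53107342-53108806 (18.4%). Their highest scores were 0.0136 to 0.0154, hardly above the lowest score on the autosomes, 0.0129. A high covered share did not require length either, since chr1:167792886-167794433 was 96.8% covered over 1548 bp and formed 1 block.

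Multi-interval regions were present on every autosome and most frequent on chromosome 8. Per chromosome there were 37 (chromosome 18) to 197 (chromosome 1), and chromosomes 1, 8 and 11 held 537 of the 1745, or 30.8%. These chromosomes also held many of the 156324 joined regions outside the areas, at 14617, 10848 and 11515. Autosomes had 0.720 ± 0.295 regions per Mb (SD over autosomes, n = 19). Chromosome 8 had 1.51 per Mb, 2.38 times the autosomal median of 0.638. Chromosome 11 had 1.22 (1.91 times), chromosome 17 had 1.04 and chromosome 1 had 1.03. Chromosome 12 was lowest with 0.381. The excess of chromosome 11 depended on the count required. It was 0.987 times the median among regions of 20 or more intervals and 0.886 times with gaps of 20 bp or less closed, whereas chromosome 8 had 2.73 and 3.0 times.

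Part of this spread followed the number of joined regions. Per 1000 joined regions the autosomes had 10.8 ± 2.62 multi-interval regions (SD, n = 19), with a median of 10.1. Chromosome 8 had 18.0 (95% exact binomial interval 15.6 to 20.7), or 1.78 times the median. Chromosome 17 followed with 14.4 (11.6 to 17.5), chromosome 1 with 13.5 (11.7 to 15.5), chromosome 13 with 13.1 and chromosome 11 with 12.6 (10.6 to 14.8). The intervals of chromosomes 8 and 17 overlapped. They cover counting error only and are too narrow where regions cluster. Chromosome 16 was lowest with 7.56.

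The excess of chromosome 8 was seen in regions with and without a high-score interval. Per 1000 joined regions it had 12.2 of the former and 5.81 of the latter, the highest of the 19 autosomes in both, against medians of 6.55 and 3.96. Without the clusters of 4 or more it had 14.2, or 1.71 times the median, while chromosome 17 fell from 14.4 to 8.32, the median itself. Chromosome 1 fell from 13.5 to 9.92, or 1.19 times the median. Copy number of the chromosomes was not measured, and its part in these values was not tested.

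The areas changed the order of the chromosomes. With all 1978 regions, chromosome 17 rose from 14.4 to 21.3 per 1000 joined regions, chromosome 14 from 10.3 to 18.2, chromosome 4 from 8.14 to 16.0 and chromosome 1 from 13.5 to 15.02. Chromosome 17 was then highest and chromosome 8, at 18.0, the third. Outside the areas, the form of the regions varied less between chromosomes, in relative terms, than their number per 1000 joined regions did. Median lengths ran from 1891 to 2470 bp, median covered shares from 54.3% to 64.8% and median highest scores from 0.0249 to 0.0330. Chromosome 19 had the highest median covered share and the highest median score.

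**Figure D5:**
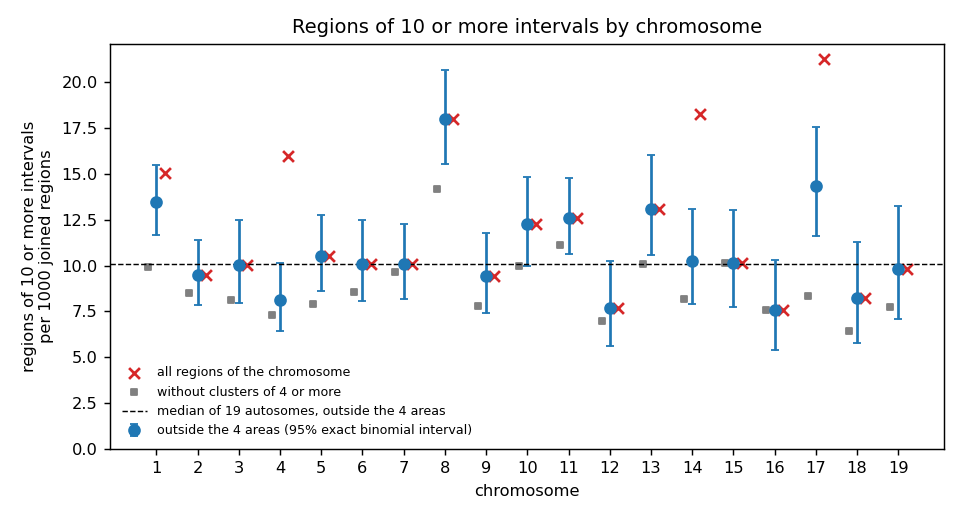
Multi-interval regions per 1000 joined regions (vertical) by chromosome (horizontal). Blue points with 95% exact binomial intervals are values outside the 4 areas, grey squares leave out clusters of 4 or more as well, and red crosses include the areas, which lift chromosomes 1, 4, 14 and 17. Chromosome 8 is the highest blue point, at 18.0.

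Inside the areas the regions differed in crowding, length and covered share. Those of chromosomes 4 and 17 were alike in median length (4487 and 4675 bp) and median covered share (71.0% and 68.8%). All 4 areas were chosen because intervals were dense there, so their higher densities and shares of multi-interval regions are a description only. The chromosome 17 area was the most crowded, with 48 regions in 0.48 Mb, which is 100 per Mb against 0.726 outside. Multi-interval regions held 82.5% of its intervals and made up 46.6% of its joined regions. They had a median of 17 intervals and 4675 bp, but their median highest score, 0.0277, was below the 0.0285 found outside. The region with the most intervals of the whole list, chr17:30804379-30831957, held 74 of them over 27579 bp and was 73.7% covered.

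The area of chromosome 1 had the fewest but the longest regions. Its 26 regions had a median length of 11362.5 bp, a median covered share of 81.1% and a median highest score of 0.0431. The one with the most intervals, chr1:85021170-85043959, held 46 over 22790 bp. In the area of chromosome 4, 87 regions had a median length of 4487 bp, were 71.0% covered and had a median highest score of 0.0367. The fullest of these, chr4:145694990-145726147, held 41 intervals over 31158 bp.

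The area of chromosome 14 came closest to the rest of the genome. Its 72 regions had a median of 13 intervals, a median length of 2660.5 bp, a covered share of 60.7% and a highest score of 0.0263. They made up 5.88% of its joined regions, against 1.12% outside. Its fullest region, chr14:4935301-4941786, held 32 intervals over 6486 bp. Whether extra copies or reads of repeated sequence gave the density of the 4 areas was not tested.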

How the data were processed

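The deposited list had 5 columns without a header, and its last column was used as a signal, the authors' F-Seq score per interval. Per the submitters' processing notes, reads were handled with Bowtie and build mm9. The sources used here do not give versions, F-Seq settings, how the input was used or which samples entered. Starts count from 0 in the list and from 1 in the text.

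Intervals were joined with pandas 2.3.3 and numpy 2.4.6 under Python 3.11.15, counting intervals came from scipy 1.17.1 and figures from matplotlib 3.10.9. Joining, counting and blocks were tested on simulated intervals. A region belonged to an area if it overlapped it. Regions named were the 5 with the most intervals, the 5 longest, the 5 highest, the 5 least and the 5 most covered and the 3 nearest the medians by rank, plus the fullest of each area. Clusters were named by size, after their values were seen. The members and areas were chosen with earlier results of these data known. No gene is named and no DNA printed, because a genome and annotation of mm9 were not used here.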

Additional observations from a re-analysis of the deposited data

Results flagged for a closer look

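The rule left out chromosome X, where 19 joined regions of 2073 held 10 or more intervals, or 9.17 per 1000 joined regions. Of these, 13 lay between 120 and 123 Mb. The whole chromosome thus lay within the 7.56 to 18.0 per 1000 of the autosomes outside the areas. Without that window, which the rule does not name and which holds most of these regions, there were 6, or 3.68 per 1000. Leaving the window out lowers the value by construction. The 19 regions of chromosome X had a median length of 3344 bp and a median highest score of 0.0263. This was noted because it is signal outside the chromosomes that the report describes.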

How the results depend on the processing

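No paired analysis was possible because no interval is assigned to a sample, and for the same reason no replicate could be left out. Counts were read as stable within 1.5 times. Medians were read as stable within a 95% interval from the ranks of the regions, and shares and densities within 95% counting intervals. These intervals treat regions as independent and are too narrow where regions cluster. Of 64 alternative values for 8 results, 18 stayed, 44 moved and 2 turned direction. Requiring more intervals, or counting fewer of them, lowers the number by construction.

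The number of multi-interval regions was 1978 in all and 1745 outside the areas. It was 557 and 473 with joining at 200 bp, 3738 and 3477 at 1000 bp, 175 and 121 with at least 20 intervals, 462 and 354 without intervals of 10 bp or less, and 158 and 93 at or above the median score. Closing gaps of 20 bp or less gave 254 and 178. That alternative, leaving out clusters of 4 or more, and each value for chromosome 8 were added after seeing the data.

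In the same order of these 6 alternatives, the median length was 1190, 3381, 5509, 3832, 6434 and 4993.5 bp. The median covered share was 74.1%, 42.6%, 65.2%, 61.9%, 70.6% and 61.2%. The median highest score was 0.0225, 0.0302, 0.0414, 0.0366, 0.0426 and 0.0404. The share inside the areas was 15.1%, 6.98%, 30.9%, 23.4%, 41.1% and 29.9%. Without clusters the median length was 2091.5 bp and the share inside the areas 14.01%. Only clusters outside the areas were left out, so that share rose by construction.

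The density of chromosome 11 relative to the autosomal median, 1.91 times, was 1.150 at 200 bp, 1.43 without narrow intervals and 1.48 at or above the median score. It turned below 1 with at least 20 intervals (0.987) and with short gaps closed (0.886). Chromosome 8 moved to 2.04 at 200 bp, 2.73 with at least 20 intervals and 3.0 with short gaps closed, so it stayed at least 2.04 times the median under all 8 alternatives. Leaving out regions near ends or empty stretches moved none of the 8 results. The unknown depth limits what a gap between intervals can show.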
